A study of Homo sapiens with 8 samples.

Results

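Mitochondrial ribosomal proteins are encoded in the nucleus under the symbols MRPL (large subunit) and MRPS (small subunit), and their transcripts were followed in 2 human acute myeloid leukaemia cell lines in which the RNA helicase DDX6 was reduced by shRNA. The genes were taken by symbol: an entry belonged to the set when its symbol was MRPL or MRPS followed by a number and at most 1 letter and when it held at least 100 counts summed over the 8 libraries. Of 61544 entries in the count tables, 79 had such a symbol and 76 reached the count, and all 76 were among the 16499 genes tested. The 3 left out were MRPS24 with 81 counts, a second entry of MRPS5 with 3 counts and MRPL53 with 1 count. The members closest above the limit were MRPL38 with 510 counts, MRPS17 with 547 and MRPL46 with 661. In GENCODE 29, MRPS24 shares exon sequence on the same strand with the readthrough gene URGCP-MRPS24, and MRPL53 with CCDC142, so the split of reads between these genes is uncertain.

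Of the 76 members, 50 encode proteins of the large subunit and 25 proteins of the small subunit. MRPS30 and MRPS18A, named as small-subunit genes, encode proteins that sit in the large subunit and are counted there. MRPS36 carries a mitoribosomal symbol but is listed by RefSeq as KGD4, a component of the 2-oxoglutarate dehydrogenase complex, and was assigned to neither subunit.

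The mitochondrial ribosome makes the few proteins that mitochondrial DNA encodes, which are core subunits of the respiratory chain and of ATP synthase. Its RNAs come from mitochondrial DNA, but all of its proteins are translated in the cytosol and imported, so the 2 genomes must supply matching parts. Many of its proteins descend from bacterial ribosomal proteins and others are found only in mitochondria. Leukaemia cells of the myeloid lineage are known to depend on mitochondrial translation.

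The 4 groups were HEL cells with a control shRNA, HEL cells with a DDX6 shRNA, MOLM-13 cells with a control shRNA and MOLM-13 cells with a DDX6 shRNA, each with 2 libraries of total RNA. In all groups, controls included, cells of unaltered genotype had been transduced with an shRNA lentivirus and selected with puromycin. HEL is an erythroleukaemia line that also expresses megakaryocytic genes, whereas MOLM-13 cells are monocytic and have a KMT2A fusion. DDX6 is needed to form P-bodies, cytoplasmic granules in which untranslated mRNAs collect, and the series asks how RNA storage in them bears on myeloid leukaemia. Each line is a single established line, and the labels do not say that replicates came from separate cultures, so the spread behind each p-value is that between these libraries and may be technical.

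Libraries held 10719829 to 12093544 counts in HEL and 7888318 to 8174432 in MOLM-13, and the smallest count of any member in any library was 47. DDX6 itself averaged 178 CPM (counts scaled to library size, here by TMM) in the HEL controls and 95.8 CPM with the DDX6 shRNA, a log2 fold change of -0.90 ± 0.07 (SE, n = 2 against 2, edgeR adjusted p = 3.54e-14). In MOLM-13 it averaged 124 and 71.0 CPM, a log2 fold change of -0.80 ± 0.08 (edgeR adjusted p = 2.56e-11), and the lines did not differ beyond error in this change (0.09 ± 0.11, edgeR adjusted p = 0.636). All 8 erythroid and megakaryocytic markers reached 1 CPM in HEL and 2 of 8 in MOLM-13. Of 9 markers listed as monocytic and KMT2A-rearranged, 9 did so in MOLM-13 and 6 in HEL, where MPO was at 0. Summed lymphoid markers were higher in the DDX6 shRNA libraries, at 12.4 to 14.3 against 5.44 to 5.95 CPM in HEL, where 1 of 5 markers reached 1 CPM, and at 45.1 to 51.3 against 8.32 to 8.89 CPM in MOLM-13, where 3 of 5 did. Stromal, endothelial and epithelial markers summed to 313 to 321 against 254 to 259 CPM in HEL, where 3 of 6 reached 1 CPM and DCN was at 0, and to 521 to 564 against 272 to 278 CPM in MOLM-13, where 4 of 6 did. The part of these shifts in the results below was not tested, and in bulk RNA a change of the level per cell cannot be told apart from a change in the mix of cells.

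The members were expressed throughout both lines, and together they took 0.526% to 0.631% of each library. Per kilobase of exon, the highest levels in MOLM-13 control libraries were those of MRPL33 at 204 ± 9.28 (SD, n = 2), MRPS34 at 157 ± 18.4, MRPL51 at 120 ± 11.2 and MRPL15 at 107 ± 4.11 CPM per kilobase. In HEL control libraries MRPL37 led with 97.0 ± 0.237 CPM per kilobase, and MRPL15 at 83.8 ± 1.74, MRPL3 at 83.3 ± 1.75 and MRPL51 at 81.9 ± 1.97 followed within their spread of each other. The same 5 genes were at the bottom in both lines: MRPL2 at 4.08 ± 0.638 in HEL and 4.64 ± 0.320 in MOLM-13, MRPS17 at 2.65 ± 0.299 and 4.34 ± 0.0250, MRPS5 at 1.89 ± 0.0720 and 2.13 ± 0.301, MRPL38 at 1.65 ± 0.110 and 2.07 ± 0.436, and MRPL46 at 1.33 ± 0.146 and 1.26 ± 0.0787 CPM per kilobase. In MOLM-13, MRPL2 and MRPS17 did not differ beyond their spread, nor did MRPS5 and MRPL38. Exons of all annotated isoforms enter these lengths. MRPS17, MRPS5, MRPL38 and MRPL46 share exon sequence with another gene on the same strand, and how such reads were counted is not given in the sources used here, so their low levels are uncertain.

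Between the control libraries, 47 of 76 members were lower and 14 higher in HEL than in MOLM-13 (edgeR adjusted p under 0.05), where 40.4% of all genes tested were lower and 40.8% higher. The median log2 difference was -0.35 over the members and 0.00 over all genes tested. The widest gap was that of MRPL33, whose bacterial homolog is a small protein of the large subunit, with 56.4 and 48.8 CPM in the HEL control libraries against 304 and 324 CPM in MOLM-13 (log2 difference -2.58 ± 0.08, edgeR adjusted p = 2.94e-31). MRPL33 shares exon sequence with BABAM2 on the same strand, so this level is uncertain. In the other direction, the mitochondria-specific MRPL39 had 93.6 and 90.8 CPM in HEL against 29.4 and 34.5 CPM in MOLM-13 (1.53 ± 0.09, edgeR adjusted p = 5.04e-20). MRPL39 and MRPL19, at 1.02 ± 0.09, were the only members more than 1 log2 unit higher in HEL. Each line has its own table, and the labels do not say whether the lines were prepared or sequenced together.

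With DDX6 shRNA, HEL cells had more of many mitoribosomal transcripts and less of a few: 21 of the 76 members rose and 5 fell, or 34.2% called, at an edgeR adjusted p under 0.05 over all genes. Of all genes tested, 34.8% were called, 20.7% higher and 14.1% lower, so the share called was near the background, and the share that rose was 27.6% against 20.7%. No member changed by 1 log2 unit or more in either line. The median log2 fold change was 0.13 over the members and 0.03 over all genes. A value above 0 was held by 54 members and by 8697 of the 16499 genes tested. Summed over the members, the level was 5140 and 4990 CPM in the control libraries and 5538 and 5371 CPM with DDX6 shRNA, and the groups did not overlap. The count of higher members rests in part on single libraries: it was 9 without HEL control replicate 2, 10 without DDX6 shRNA replicate 1, and 13 with DESeq2. The count that fell was 3 without HEL control replicate 1 or without either HEL DDX6 shRNA replicate, 9 without either MOLM-13 control replicate or with GC and length trends removed, and 10 with HEL fitted alone.

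In MOLM-13 the balance was the other way: 6 members rose and 15 fell, or 27.6% called, where 32.4% of all genes were called, 18.1% higher and 14.3% lower. The share that fell was 19.7% of members. The median log2 fold change was -0.08 over the members and 0.00 over all genes. A value above 0 was held by 25 of 76 members and by 8079 of the 16499 genes tested. The summed level was 6077 and 6506 CPM in the control libraries and 5981 and 5825 CPM with DDX6 shRNA, so the groups did not overlap but the lower control library was close to the DDX6 shRNA libraries. The MOLM-13 controls were the most spread pair: the median absolute log2 ratio between the replicates over the members was 0.131, against 0.067 to 0.069 in the other groups, and 56 of 76 members were higher in control replicate 2. The median change was -0.13 without control replicate 1 and -0.03 without control replicate 2, and the number that fell was 9 without DDX6 shRNA replicate 2. The number that rose was 3 without control replicate 1 or without DDX6 shRNA replicate 2.

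**Figure D1:**
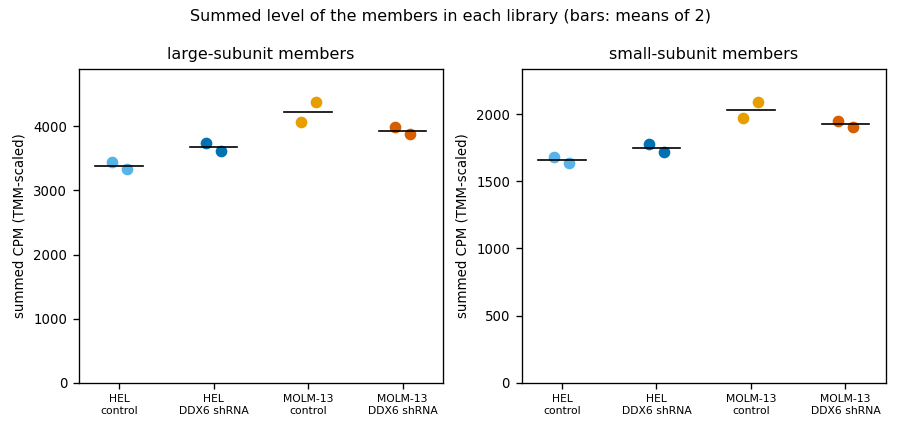
Summed CPM (TMM-scaled) of the 50 large-subunit members and the 25 small-subunit members in each of the 8 libraries; points are libraries and bars are means of 2. In both subunits the HEL points with DDX6 shRNA lie above the HEL controls, and the MOLM-13 points with DDX6 shRNA lie below the MOLM-13 controls.

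The lines were also compared directly, by subtracting the change in HEL from that in MOLM-13. The names of the HEL columns carry a hairpin number and those of MOLM-13 do not, so whether both lines had the same hairpin is not known. A difference between lines therefore cannot be told apart from one between hairpins. Of the 76 members, 11 had a lower change in MOLM-13 and 0 a higher one (edgeR adjusted p under 0.05), where 7.59% of all genes were lower and 7.53% higher, 15.1% in either direction. At an unadjusted edgeR p under 0.05, 1 member was higher and 22 were lower, and DESeq2 called 0 higher and 9 lower. The median difference was -0.18 over the members and -0.03 over all genes, and 64 of 76 members had a lower value in MOLM-13. A difference above 0 was held by 12 members and by 7766 of the 16499 genes tested. The count of 11 was 18 without MOLM-13 control replicate 1, and 7 without HEL control replicate 2, without HEL DDX6 shRNA replicate 1 or without MOLM-13 DDX6 shRNA replicate 1. The median difference was -0.08 without MOLM-13 control replicate 2.

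Taken by sign alone, 32 members had a value above 0 in HEL and below 0 in MOLM-13, and 3 had the reverse. Another 21 were above 0 in both lines and 19 below 0 in both. MRPS36, with 0.21 in HEL and a value that rounds to 0.00 in MOLM-13, was left out of these classes, although it is among the 25 counted above 0 in MOLM-13. These classes were not counted over all genes. Of the calls, 5 members rose in both lines (6.58% of members, 8.15% of all genes), 4 fell in both (5.26% of members, 5.43% of all genes) and 1, MRPL13, was called in opposite directions (1.32% and 1.66%). Those shares are near the background. In all, 37 members (48.7%) were called in at least 1 line and 39 in neither. By line, 34.8% of all genes were called in HEL and 32.4% in MOLM-13. The share of all genes called in at least 1 line was not computed, so this count is not read as a result about the members. The control libraries of the lines are separate, so no library is shared between the comparisons. Every called member had libraries that did not overlap between groups: 21 higher and 5 lower in HEL, and 6 higher and 15 lower in MOLM-13. Named genes were chosen in part by this trait, so its mention below describes the values and adds no support to a call. Its share over all genes was not computed.

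**Figure D2:**
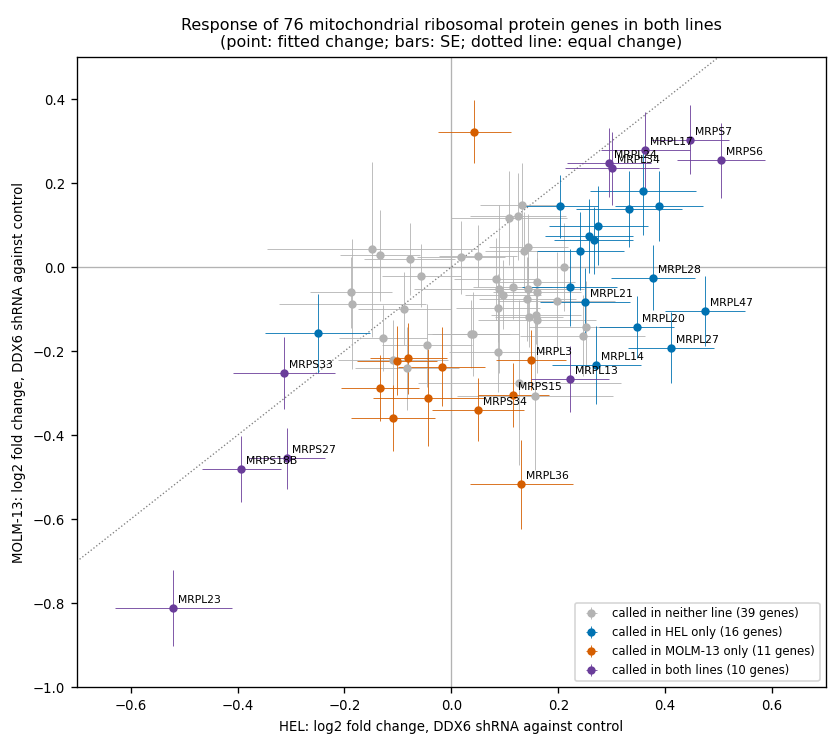
Fitted log2 fold change (DDX6 shRNA against control) of the 76 members in HEL (x axis) and MOLM-13 (y axis), with SE bars, coloured by the line in which each was called (edgeR adjusted p under 0.05); the dotted line marks equal change. Most points (64 of 76) lie below the dotted line, and the named points include the 5 members that rose and the 4 that fell in both lines.

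Of the 5 members that rose in both lines, 2 encode small-subunit proteins. MRPS6, a homolog of a bacterial protein of the small-subunit platform (chr21:34073224-34143034, plus strand, GRCh38), had 52.5 and 47.1 CPM in HEL control and 73.1 and 68.2 CPM with DDX6 shRNA, and 55.8 and 53.4 against 65.1 and 65.2 CPM in MOLM-13. All DDX6 shRNA libraries were above all controls of their line, and the log2 fold change was 0.50 ± 0.08 in HEL (edgeR adjusted p = 2.92e-06) and 0.25 ± 0.09 in MOLM-13 (edgeR adjusted p = 0.0261). MRPS6 shares exon sequence on the same strand with SLC5A3, so the split of reads between them is uncertain. The MOLM-13 call was lost without MOLM-13 control replicate 2 or without either DDX6 shRNA replicate of that line. With all libraries kept, that call was also lost with DESeq2, with no filter and with the line fitted alone.

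MRPS7, whose bacterial homolog binds ribosomal RNA early in assembly of the small-subunit head (chr17:75261674-75266373, plus strand), had 99.1 and 99.4 CPM in HEL control and 140 and 131 CPM with DDX6 shRNA. In MOLM-13 it had 78.2 and 90.4 CPM in control and 106 and 102 CPM with DDX6 shRNA. The groups did not overlap in either line, and MRPS7 rose by 0.45 ± 0.07 on the log2 scale in HEL (edgeR adjusted p = 3.46e-06) and by 0.30 ± 0.08 in MOLM-13 (edgeR adjusted p = 0.00313). Its exons overlap GGA3 and MIF4GD on the opposite strand, and because the strand setting of the counting is not given in the sources used here, reads of such partners cannot be told apart.

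The other 3 members that rose in both lines belong to the large subunit. MRPL17, near the exit of the tunnel through which new proteins leave the ribosome (chr11:6680782-6683401, minus strand), had 53.7 and 49.0 CPM in HEL control against 67.5 and 64.6 CPM, and 57.2 and 66.5 against 77.9 and 72.2 CPM in MOLM-13. It rose by 0.36 ± 0.08 in HEL (edgeR adjusted p = 0.000594) and 0.28 ± 0.09 in MOLM-13 (edgeR adjusted p = 0.014). MRPL24, also a tunnel protein, rose by 0.30 ± 0.08 in HEL, from 69.7 and 67.3 to 85.5 and 82.4 CPM (edgeR adjusted p = 0.00274), and by 0.25 ± 0.08 in MOLM-13, from 80.9 and 94.3 to 101 and 107 CPM (edgeR adjusted p = 0.0167). MRPL34, a homolog of a small bacterial large-subunit protein, rose by 0.30 ± 0.09 in HEL, from 47.2 and 43.7 to 60.1 and 51.8 CPM (edgeR adjusted p = 0.00614), and by 0.24 ± 0.09 in MOLM-13, from 70.3 and 78.3 to 84.2 and 90.8 CPM (edgeR adjusted p = 0.0337). None of the 3 overlapped between groups in either line, as held for every called member. Each lost a call when a library was left out. All 3 did so in HEL without control replicate 2 and in MOLM-13 without control replicate 1. MRPL24 and MRPL34 also did so in HEL without DDX6 shRNA replicate 1 and in MOLM-13 without DDX6 shRNA replicate 2. MRPL17 also did so in MOLM-13 without DDX6 shRNA replicate 1. MRPL34 in MOLM-13 also lost its call without either HEL control replicate. With all libraries kept, MRPL34 lost that call with DESeq2, with no filter and with the line fitted alone. MRPL24 in MOLM-13 lost its call with the line fitted alone.

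Among the members that fell in both lines, MRPL23 fell furthest. It encodes a homolog of the bacterial tunnel-exit protein where folding and targeting factors dock (chr11:1947278-1984522, plus strand), and it had 36.7 and 32.5 CPM in HEL control and 26.6 and 21.6 CPM with DDX6 shRNA. In MOLM-13 it had 119 and 140 CPM in control and 79.2 and 68.5 CPM with DDX6 shRNA. The groups were apart in both lines, with log2 fold changes of -0.52 ± 0.11 in HEL (edgeR adjusted p = 0.000198) and -0.81 ± 0.09 in MOLM-13 (edgeR adjusted p = 6.95e-10), and the difference between lines was -0.29 ± 0.14, short of the threshold (edgeR adjusted p = 0.178). The antisense gene MRPL23-AS1 overlaps its exons.

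The other 3 are small-subunit proteins classed here as mitochondria-specific. MRPS18B, 1 of 3 human relatives of a single bacterial protein, lies in the major histocompatibility region (chr6:30617709-30626395, plus strand) and had 121 and 116 CPM in HEL control against 91.3 and 88.8 CPM, and 124 and 136 against 97.6 and 88.6 CPM in MOLM-13. It fell by 0.39 ± 0.07 in HEL (edgeR adjusted p = 3.32e-05) and by 0.48 ± 0.08 in MOLM-13 (edgeR adjusted p = 3.19e-06). MRPS27, a pentatricopeptide repeat RNA-binding protein (chr5:72219409-72320646, minus strand), had 115 and 117 CPM in HEL control against 95.3 and 91.6 CPM, and 153 and 157 against 112 and 114 CPM in MOLM-13. All DDX6 shRNA libraries of MRPS18B and MRPS27 were below the controls, and MRPS27 fell by 0.31 ± 0.07 in HEL (edgeR adjusted p = 0.000538) and by 0.46 ± 0.07 in MOLM-13 (edgeR adjusted p = 2.47e-06). Its exons overlap PTCD2 on the opposite strand. MRPS33 fell by 0.31 ± 0.10 in HEL, from 34.7 and 32.5 to 27.2 and 26.9 CPM (edgeR adjusted p = 0.00861), and by 0.25 ± 0.09 in MOLM-13, from 76.6 and 76.3 to 63.4 and 65.0 CPM (edgeR adjusted p = 0.0195). The MRPS33 call was lost in HEL without control replicate 1 or either DDX6 shRNA replicate and in MOLM-13 without either DDX6 shRNA replicate. Its MOLM-13 call was also lost with DESeq2.

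**Figure D3:**
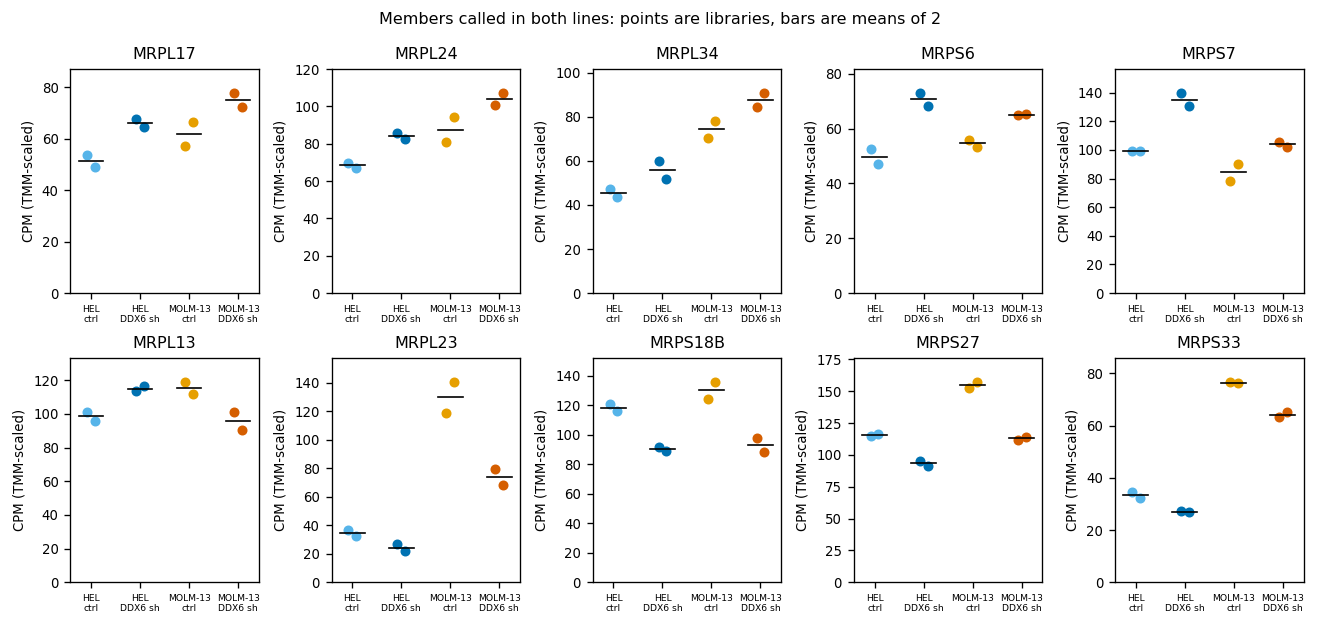
CPM (TMM-scaled) in each of the 8 libraries for the 5 members that rose in both lines (top row), and for MRPL13, called in opposite directions, and the 4 that fell in both (bottom row); ctrl is control shRNA, DDX6 sh is DDX6 shRNA, points are libraries and bars are means of 2. In each panel the 2 groups of a line do not overlap, as held for every called member, and MRPL13 moves up in HEL and down in MOLM-13.

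Start regions were available from RefSeq (GRCh38.p14, 250 bases before to 50 after the annotated start) for 67 of the 76 members. Those of 4 genes called the same way in both lines are printed, 2 that rose and 2 that fell. They rank first in each direction by the smaller of their 2 absolute changes, among genes with a region. Whether the motifs go with the direction of change was not tested. Capitals mark matches to 3 motifs searched on both strands: the core CCGGAA of ETS factors, the NRF1 motif (GCGC, any 2 bases, GCGC), and AAGATGGC of YY1. MRPS7, which rose in both lines, is at chr17:75261629-75261928 on the plus strand.
MRPS7: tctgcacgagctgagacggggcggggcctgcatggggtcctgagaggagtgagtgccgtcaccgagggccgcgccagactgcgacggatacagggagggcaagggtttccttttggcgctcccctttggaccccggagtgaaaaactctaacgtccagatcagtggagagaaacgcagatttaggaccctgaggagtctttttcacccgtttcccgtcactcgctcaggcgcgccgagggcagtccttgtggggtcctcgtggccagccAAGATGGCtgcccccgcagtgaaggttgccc
MRPL17, which also rose in both lines, is at chr11:6683291-6683590 on the minus strand.
MRPL17: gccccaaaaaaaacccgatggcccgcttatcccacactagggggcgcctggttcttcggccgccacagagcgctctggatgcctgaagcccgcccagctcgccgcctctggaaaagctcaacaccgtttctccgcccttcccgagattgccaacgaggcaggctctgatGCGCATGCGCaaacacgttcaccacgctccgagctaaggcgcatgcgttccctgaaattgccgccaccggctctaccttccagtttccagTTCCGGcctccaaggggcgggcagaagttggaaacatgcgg
MRPS18B, which fell in both lines, is at chr6:30617590-30617889 on the plus strand.
MRPS18B: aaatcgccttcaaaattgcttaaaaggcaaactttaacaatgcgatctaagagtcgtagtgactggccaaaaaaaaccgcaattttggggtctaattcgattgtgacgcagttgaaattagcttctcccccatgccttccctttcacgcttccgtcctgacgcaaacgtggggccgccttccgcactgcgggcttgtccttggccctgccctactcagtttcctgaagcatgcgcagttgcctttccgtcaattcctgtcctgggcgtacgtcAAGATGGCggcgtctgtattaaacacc
MRPS27, which also fell in both lines, is at chr5:72320191-72320490 on the minus strand.
MRPS27: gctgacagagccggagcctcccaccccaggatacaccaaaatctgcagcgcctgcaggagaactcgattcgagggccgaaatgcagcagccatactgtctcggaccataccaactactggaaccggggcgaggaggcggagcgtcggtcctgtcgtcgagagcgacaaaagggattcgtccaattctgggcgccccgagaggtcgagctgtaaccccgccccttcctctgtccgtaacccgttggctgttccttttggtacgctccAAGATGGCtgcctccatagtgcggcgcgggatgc

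The YY1 letters start 19 bases after the annotated start in MRPS7, 23 bases after it in MRPS18B and 16 bases after it in MRPS27. AAGATGGC contains ATG, the letters of a translation start codon. Whether these matches are the starts of coding sequence was not checked, so they cannot be read as YY1 sites alone. MRPL17 has the NRF1 letters 81 bases before its start and the ETS letters, read on the reverse strand, 9 bases after it. Over the members, 19 of 67 regions (28.4%) held the YY1 letters against 3.03% of all 27305 regions of the same length, and in 14 members they began at or after the start. The ETS core was in 37 regions (55.2%, against 17.6% of all regions) and the NRF1 letters in 9 (13.4%, against 8.78%). The 27305 regions were not limited to the 16499 genes tested or to expressed genes. These shares therefore do not show whether the members differ from other expressed genes. Of the 9 members called the same way in both lines, MRPS7 (higher), MRPS18B and MRPS27 (both lower) held the YY1 letters, MRPL24 (higher) held the ETS core, MRPL17 (higher) and MRPS33 (lower) held both the ETS and NRF1 letters, MRPS6 and MRPL34 (higher) held none of the 3, and MRPL23 had no entry. A match describes letters and not binding, and none was measured here.

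By subunit, the large subunit had 15 members that rose and 1 that fell of 50 in HEL (median log2 fold change 0.14), and the small subunit 6 and 4 of 25 (0.09). In MOLM-13 the large subunit had 3 that rose and 10 that fell (-0.08) and the small subunit 3 and 5 (-0.09). For the difference between lines, 9 large-subunit and 2 small-subunit members were lower in MOLM-13. Over all genes tested, 20.7% rose and 14.1% fell in HEL, and 18.1% rose and 14.3% fell in MOLM-13. The share of all genes with a lower change in MOLM-13 was 7.59%. In HEL and for the difference, the small-subunit counts were near these shares, and the large-subunit counts were further from them. Summed over the large subunit, the level was 3438 and 3330 CPM in the HEL controls, 3737 and 3622 CPM in HEL with DDX6 shRNA, 4068 and 4374 CPM in MOLM-13 control and 3992 and 3877 CPM in MOLM-13 with DDX6 shRNA. Whether the subunits differ from each other or from all genes was not tested.

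By origin, homologs of bacterial proteins had 17 of 45 members higher and 1 lower in HEL (median 0.16), and mitochondria-specific proteins 4 of 30 higher and 4 lower (0.05). In MOLM-13 the counts were 5 higher and 7 lower of 45, and 1 higher and 8 lower of 30. MRPS18A and MRPS18B were classed as mitochondria-specific and MRPS18C as a bacterial homolog, although all 3 are relatives of 1 bacterial protein. The counts by origin depend on that choice. Of all genes, 20.7% were higher and 14.1% lower in HEL and 18.1% and 14.3% in MOLM-13, and whether the classes differ was not tested. For the difference between lines, 10 of the 45 bacterial homologs and 1 of the 30 mitochondria-specific members, MRPS34, were lower in MOLM-13. Of all genes, 7.59% were lower for this difference. Around the exit tunnel, 3 of 6 members rose in HEL (MRPL17, MRPL24 and MRPL47) and 1 fell (MRPL23), and in MOLM-13 2 rose (MRPL17 and MRPL24) and 2 fell (MRPL23 and MRPL45, which tethers the ribosome to the inner membrane). Of the 6 members of the central protuberance, the knob at the top of the large subunit, none was called in HEL and 1, MRPL40, in MOLM-13, in the same edgeR test. Of the 3 members of the stalk that recruits translation factors, only MRPL12 was called, in HEL, at 43.4 and 45.3 CPM in control against 53.9 and 49.4 CPM (0.22 ± 0.09, edgeR adjusted p = 0.0448), a call lost when any of the HEL libraries or either MOLM-13 DDX6 shRNA library was left out. The MRPL12 call was also lost with upper-quartile scaling, no filter, DESeq2 and the replicate number as a block. MRPL12 shares exon sequence on the same strand with AC139530.2, so its level is uncertain.

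**Figure D4:**
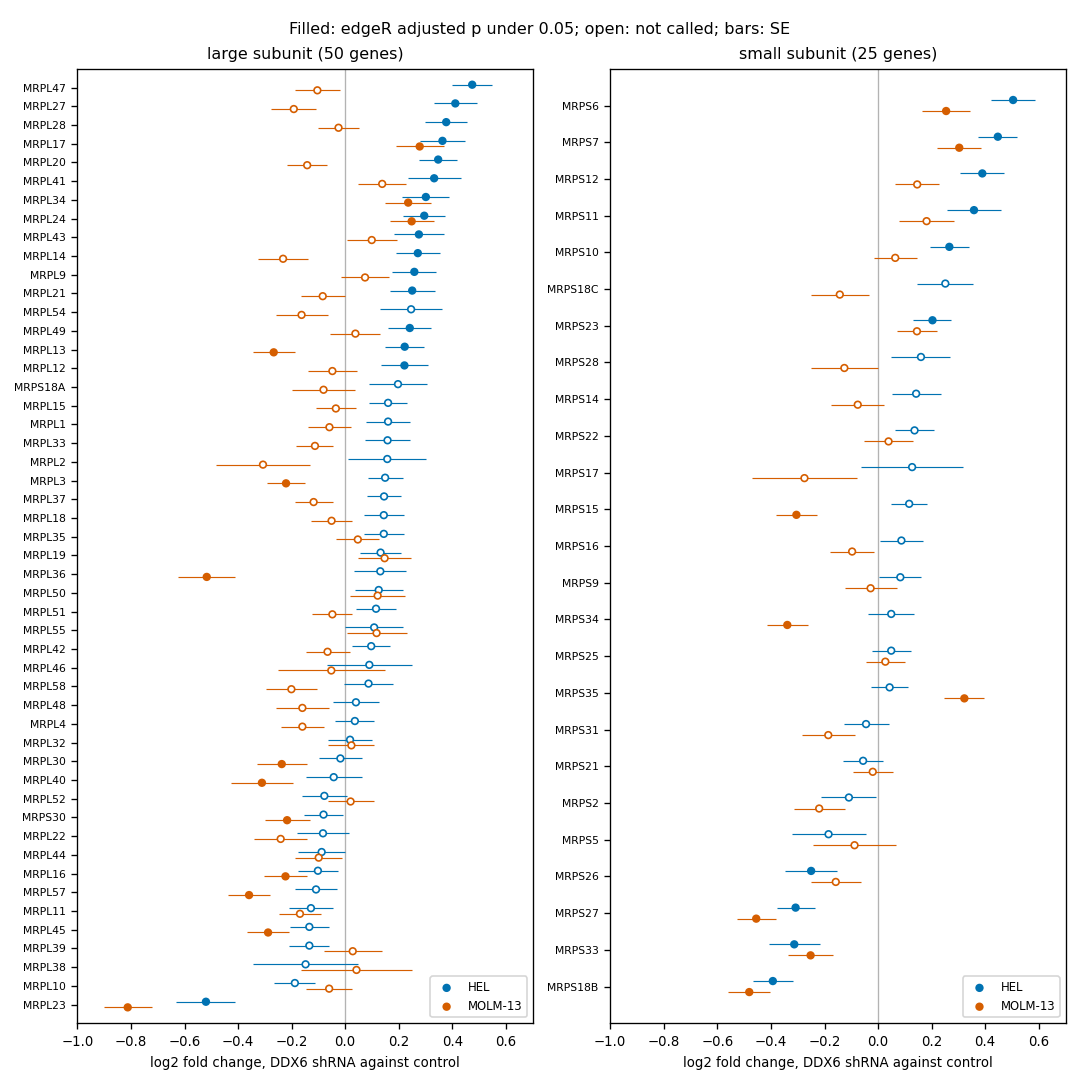
Fitted log2 fold change (DDX6 shRNA against control) with SE bars for the 50 large-subunit members and the 25 small-subunit members in both lines; filled points passed an edgeR adjusted p under 0.05 and open points did not. MRPS36, assigned to neither subunit, is not drawn; values run from -0.52 to 0.50 in HEL and from -0.81 to 0.32 in MOLM-13.

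Next to the members called in both lines, several large-subunit members rose in HEL. MRPL47, a tunnel-exit protein, had 72.1 and 73.9 CPM in HEL control and 104 and 99.1 CPM with DDX6 shRNA, without overlap (0.47 ± 0.07, edgeR adjusted p = 1.91e-06). MRPL27, whose bacterial homolog reaches into the peptidyl transferase centre, had 51.3 and 50.5 CPM in control and 68.4 and 66.9 CPM with DDX6 shRNA (0.41 ± 0.08, edgeR adjusted p = 5.97e-05). Both pairs of groups were well apart. MRPL28, a homolog of a bacterial large-subunit protein, had 67.5 and 71.5 CPM against 92.4 and 88.2 CPM (0.38 ± 0.08, edgeR adjusted p = 0.000182), and MRPL20, whose bacterial homolog binds ribosomal RNA early in assembly, had 103 and 102 CPM against 135 and 126 CPM (0.35 ± 0.07, edgeR adjusted p = 0.000107). The mitochondria-specific MRPL41 had 33.1 and 31.7 CPM against 40.4 and 41.3 CPM (0.33 ± 0.10, edgeR adjusted p = 0.00716), a call lost without HEL control replicate 2. MRPL47 overlaps ACTL6A on the opposite strand, MRPL28 overlaps TMEM8A on the same strand and MRPL20 overlaps RN7SL657P and AL391244.1, so reads at those exons are uncertain.

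In the small subunit of HEL, MRPS12, whose bacterial homolog is part of the decoding centre, had 55.6 and 50.6 CPM in control and 70.8 and 68.3 CPM with DDX6 shRNA (0.39 ± 0.08, edgeR adjusted p = 0.000196). MRPS12 overlaps SARS2, a mitochondrial tRNA synthetase gene on the opposite strand. MRPS11, a platform protein, had 26.2 and 27.2 CPM against 35.0 and 33.5 CPM (0.36 ± 0.10, edgeR adjusted p = 0.00377), and lost its call without HEL control replicate 1 or DDX6 shRNA replicate 1. MRPS11 and MRPL46 lie head to head on chromosome 15 with starts 34 bases apart, but MRPL46, at 9.19 and 7.86 CPM against 8.70 and 9.50 CPM, overlapped between groups (0.09 ± 0.16, edgeR adjusted p = 0.717). MRPS26, a mitochondria-specific protein, fell from 39.5 and 35.2 to 31.5 and 31.3 CPM (-0.25 ± 0.10, edgeR adjusted p = 0.0418), a call lost without control replicate 1 or either DDX6 shRNA replicate. The MRPS26 call was also lost with DESeq2, with no filter and with the replicate number as a block.

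In MOLM-13, the largest fall after MRPL23 was that of MRPL36, a short zinc-binding protein of the large subunit, with 44.1 and 45.1 CPM in control and 28.7 and 33.6 CPM with DDX6 shRNA (-0.52 ± 0.11, edgeR adjusted p = 0.000126). The mitochondria-specific MRPL57 had 105 and 110 CPM against 85.0 and 82.6 CPM (-0.36 ± 0.08, edgeR adjusted p = 0.00036), and MRPL45 had 101 and 111 CPM against 87.2 and 86.2 CPM (-0.29 ± 0.08, edgeR adjusted p = 0.00366). In these 3 genes both control libraries were above both DDX6 shRNA libraries. MRPL40, of the central protuberance, had 33.8 and 33.5 CPM against 29.1 and 25.1 CPM (-0.31 ± 0.12, edgeR adjusted p = 0.0325), but lost its call without either control replicate or DDX6 shRNA replicate 2. The MRPL40 call was also lost with DESeq2 and with no filter.

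In the small subunit of MOLM-13, MRPS34, needed to keep the small-subunit ribosomal RNA stable, had 158 and 186 CPM in control and 141 and 131 CPM with DDX6 shRNA (-0.34 ± 0.08, edgeR adjusted p = 0.000456). MRPS15, a homolog of a bacterial RNA-binding protein, had 113 and 119 CPM against 95.5 and 92.7 CPM (-0.31 ± 0.08, edgeR adjusted p = 0.00146). MRPS35 went the other way, from 98.0 and 96.3 to 120 and 123 CPM (0.32 ± 0.08, edgeR adjusted p = 0.000692), and was the only member that rose in MOLM-13 without a call in HEL, where it had 131 and 128 CPM in control and 133 and 134 CPM with DDX6 shRNA. Its difference between lines was 0.28 ± 0.10 (edgeR adjusted p = 0.0551), which fell short of the threshold, but passed it with other scaling (0.29 with RLE, edgeR adjusted p = 0.0426, and 0.31 with upper-quartile scaling, edgeR adjusted p = 0.0289), and without MOLM-13 control replicate 1, control replicate 2 or DDX6 shRNA replicate 1.

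The 11 members whose change differed between lines all had the lower value in MOLM-13. MRPL36 had the largest difference, -0.65 ± 0.14 (edgeR adjusted p = 0.001), with 30.1 and 31.5 CPM in HEL control and 33.7 and 33.8 CPM in HEL with DDX6 shRNA (0.13 ± 0.10, edgeR adjusted p = 0.316). MRPL27 differed by -0.60 ± 0.12 (edgeR adjusted p = 0.000174), with 75.9 and 80.3 CPM in MOLM-13 control and 69.8 and 66.9 CPM with DDX6 shRNA. MRPL47 differed by -0.58 ± 0.11 (edgeR adjusted p = 0.000184), with 80.0 and 87.8 CPM in MOLM-13 control against 80.1 and 76.1 CPM, which overlapped.

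MRPL13, whose bacterial homolog joins the large subunit early in assembly, was the member called in opposite directions. It rose from 101 and 95.6 to 113 and 117 CPM in HEL (0.22 ± 0.07, edgeR adjusted p = 0.0149) and fell from 119 and 112 to 101 and 90.5 CPM in MOLM-13 (-0.27 ± 0.08, edgeR adjusted p = 0.00698), a difference of -0.49 ± 0.11 (edgeR adjusted p = 0.00092). The difference kept its call without any single library, whereas the HEL call was lost without HEL control replicate 2 or either HEL DDX6 shRNA replicate, and the MOLM-13 call without MOLM-13 DDX6 shRNA replicate 2. With DESeq2 the HEL call of MRPL13 was lost too. MRPL20 differed by -0.49 ± 0.10 (edgeR adjusted p = 0.000507) and MRPS15 by -0.42 ± 0.10 (edgeR adjusted p = 0.00268). Of the 11 differences, 6 kept their call under all 14 alternatives tried: MRPL36, MRPL27, MRPL47, MRPL13, MRPL20 and MRPS15.

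The other 5 differences were lost under at least 1 alternative. MRPL14, a homolog of a bacterial protein at the subunit interface, differed by -0.50 ± 0.13 (edgeR adjusted p = 0.00355) and lost its call without HEL control replicate 2. MRPL3, which lies near the peptidyl transferase centre, fell in MOLM-13 from 165 and 155 to 134 and 141 CPM (-0.22 ± 0.07, edgeR adjusted p = 0.0153) and had 229 and 223 CPM in HEL control against 258 and 243 CPM (0.15 ± 0.07, edgeR adjusted p = 0.0704). The MOLM-13 call was lost without MOLM-13 control replicate 1 or DDX6 shRNA replicate 1. Its difference of -0.37 ± 0.10 (edgeR adjusted p = 0.00588) was lost without HEL control replicate 2, HEL DDX6 shRNA replicate 1 or MOLM-13 DDX6 shRNA replicate 1. MRPL28 (-0.40 ± 0.11, edgeR adjusted p = 0.00902), MRPS34 (-0.39 ± 0.12, edgeR adjusted p = 0.0161) and MRPL21 (-0.33 ± 0.12, edgeR adjusted p = 0.0453) were lost when any of several libraries was left out, MOLM-13 control replicate 2, HEL control replicate 1, HEL DDX6 shRNA replicate 1 and either MOLM-13 DDX6 shRNA replicate among them for all 3. MRPS34 and MRPL21 were also lost without HEL control replicate 2, and MRPL21 without HEL DDX6 shRNA replicate 2. With all libraries kept, both were lost with DESeq2. MRPL21 was lost as well with RLE or upper-quartile scaling, with no filter and with the replicate number as a block. It kept its call under only 2 of the 14 alternatives.

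**Figure D5:**
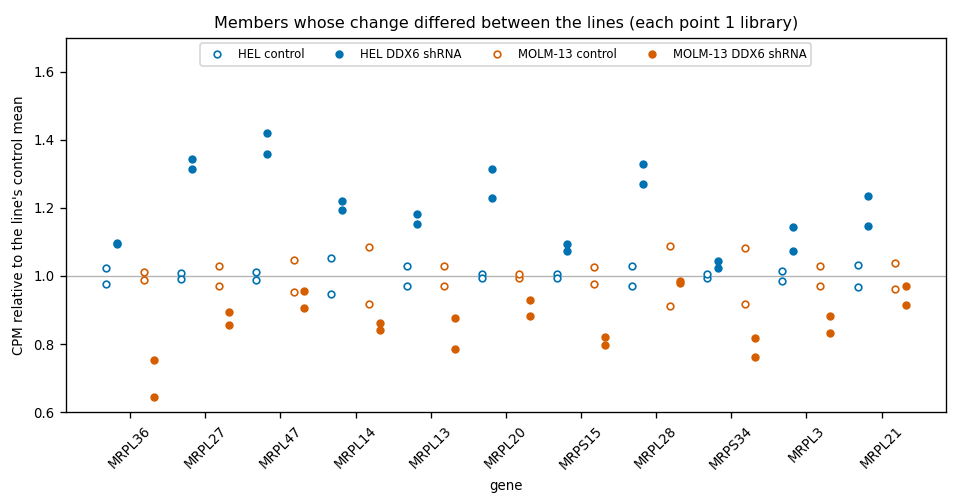
CPM relative to the mean of the line's control libraries for the 11 members whose change differed between the lines; open points are control and filled points DDX6 shRNA libraries, 2 per group. For each of these genes the filled HEL points lie higher on this scale than the filled MOLM-13 points.

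Mitoribosomal proteins whose symbols are not of the MRP form were 5 genes. AURKAIP1, a small-subunit protein, rose in HEL (0.43 ± 0.08, edgeR adjusted p = 1.18e-05) and fell in MOLM-13 (-0.26 ± 0.08, edgeR adjusted p = 0.00588). CHCHD1, also of the small subunit, rose in HEL (0.29 ± 0.09, edgeR adjusted p = 0.0113), and PTCD3, a pentatricopeptide repeat protein of the small subunit, fell in both lines (-0.26 ± 0.07 and -0.20 ± 0.08, edgeR adjusted p = 0.00201 and 0.0318). In all, 2 of the 5 rose and 1 fell in HEL, and 0 rose and 2 fell in MOLM-13, in the same edgeR test. Of all genes, 34.8% were called in HEL and 32.4% in MOLM-13, and with 5 genes these counts cannot be told apart from those shares. The MOLM-13 calls were lost without single libraries: AURKAIP1 without control replicate 2 or DDX6 shRNA replicate 2, and PTCD3 without control replicate 1, either DDX6 shRNA replicate or either HEL control replicate. CHCHD1 lost its HEL call without HEL control replicate 2 or DDX6 shRNA replicate 2.

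Of 28 assembly factors tested, 3 rose and 4 fell in HEL and 4 rose and 3 fell in MOLM-13, with medians of 0.01 and -0.05. That is 7 of 28 called in each line, a smaller share than the 34.8% and 32.4% of all genes. RBFA, which matures the small-subunit ribosomal RNA, fell in HEL (-0.69 ± 0.10, edgeR adjusted p = 3.07e-07), as did the GTPase NOA1 (-0.56 ± 0.10, edgeR adjusted p = 1.3e-05), while the large-subunit factor MPV17L2 rose (0.68 ± 0.14, edgeR adjusted p = 9.54e-05). In MOLM-13 the ribosomal RNA methyltransferase TFB1M (-0.55 ± 0.11, edgeR adjusted p = 0.000128) and METTL17 (-0.37 ± 0.08, edgeR adjusted p = 0.000213) fell and the pseudouridine synthase TRUB2 rose (0.37 ± 0.09, edgeR adjusted p = 0.000562).

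Of 17 mitochondrial translation factors, 3 rose and 5 fell in HEL, and 4 rose and 3 fell in MOLM-13, or 47.1% and 41.2% called, against 34.8% and 32.4% of all genes. The elongation factor GFM1 rose in both lines (0.34 ± 0.08 and 0.38 ± 0.09, edgeR adjusted p = 0.000472 and 0.000513), and the initiation factor MTIF2 fell in HEL (-0.35 ± 0.07, edgeR adjusted p = 0.000203). The release factor MTRF1 fell in HEL and MOLM-13 (-0.32 ± 0.11 and -0.58 ± 0.11, edgeR adjusted p = 0.0154 and 2.99e-05). SLIRP, which stabilises mitochondrial mRNAs, rose in HEL (0.32 ± 0.08, edgeR adjusted p = 0.002) and fell in MOLM-13 (-0.30 ± 0.10, edgeR adjusted p = 0.0175). SLIRP lost its HEL call without HEL control replicate 2 and its MOLM-13 call without control replicate 2 or DDX6 shRNA replicate 2, and MTRF1 its HEL call without either HEL control replicate or DDX6 shRNA replicate 1.

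Of 13 mitochondrially encoded mRNAs, MT-CYB alone rose in HEL (0.28 ± 0.06, edgeR adjusted p = 0.00021) and none fell, and in MOLM-13 4 rose and none fell in the same test, among them MT-ND4L (0.43 ± 0.06, edgeR adjusted p = 3.39e-07), MT-CO1 (0.24 ± 0.05, edgeR adjusted p = 0.000261) and MT-ND5 (0.24 ± 0.06, edgeR adjusted p = 0.000729). The shares called were 7.69% in HEL and 30.8% in MOLM-13, against 34.8% and 32.4% of all genes. The small ribosomal RNA MT-RNR1 rose in both lines (0.15 ± 0.06 and 0.31 ± 0.06, edgeR adjusted p = 0.0279 and 1.48e-05), and the large one, MT-RNR2, in MOLM-13 (0.28 ± 0.05, edgeR adjusted p = 1.14e-05). The HEL call of MT-RNR1 was lost without either HEL control replicate, HEL DDX6 shRNA replicate 1 or either MOLM-13 DDX6 shRNA replicate. How RNA was selected for these libraries is not given in the sources used here.

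Of 17 regulators of mitochondrial biogenesis, 1 rose and 3 fell in HEL and 2 rose and 3 fell in MOLM-13, or 23.5% and 29.4% called, against 34.8% and 32.4% of all genes. The mitochondrial transcription factor TFAM (-0.33 ± 0.07 and -0.31 ± 0.08, edgeR adjusted p = 0.000373 and 0.00324) and the helicase TWNK (-0.33 ± 0.08 and -0.30 ± 0.09, edgeR adjusted p = 0.000846 and 0.0081) fell in both lines, and the nuclear receptor ESRRA rose in both (0.31 ± 0.08 and 0.25 ± 0.09, edgeR adjusted p = 0.00303 and 0.0241). MTERF2 rose in MOLM-13 (0.89 ± 0.22, edgeR adjusted p = 0.0015). MYC fell in MOLM-13 (-0.23 ± 0.06, edgeR adjusted p = 0.00347) and had a value of -0.06 ± 0.06 in HEL (edgeR adjusted p = 0.454). In MOLM-13, the calls of TFAM, TWNK, MYC and ESRRA were lost without DDX6 shRNA replicate 1, those of TFAM and ESRRA also without control replicate 1, and those of MTERF2 and ESRRA without DDX6 shRNA replicate 2; in HEL, ESRRA lost its call without control replicate 2 or DDX6 shRNA replicate 1.

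Among 32 mitochondrial import genes, 9 rose and 4 fell in HEL and 3 rose and 4 fell in MOLM-13, or 40.6% and 21.9% called, against 34.8% and 32.4% of all genes. The channel subunit TIMM17A rose in both lines (0.64 ± 0.07 and 0.18 ± 0.07, edgeR adjusted p = 3.76e-10 and 0.0464), TOMM34 rose in HEL (0.46 ± 0.08, edgeR adjusted p = 6.02e-06) and the receptor TOMM20 fell in HEL (-0.51 ± 0.06, edgeR adjusted p = 5.01e-09). In MOLM-13 the processing peptidase subunit PMPCB fell (-0.27 ± 0.08, edgeR adjusted p = 0.00473), and TIMMDC1 (0.24 ± 0.08, edgeR adjusted p = 0.0133) and the chaperone HSPA9 (0.18 ± 0.06, edgeR adjusted p = 0.0158) rose. The MOLM-13 call of TIMM17A was lost when any library but MOLM-13 control replicate 1 was left out, that of PMPCB without DDX6 shRNA replicate 1, and those of TIMMDC1 and HSPA9 without DDX6 shRNA replicate 2.

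Of 73 nuclear genes for oxidative phosphorylation, 30 rose and 2 fell in HEL (median 0.17), and 15 rose and 4 fell in MOLM-13 (median 0.06). The share that rose was 41.1% in HEL, against 20.7% of all genes, and 20.5% in MOLM-13, near the 18.1% of all genes. NDUFB10, NDUFS5 and COX7B, subunits of respiratory complexes I and IV, rose in HEL by 0.49 ± 0.08, 0.43 ± 0.07 and 0.41 ± 0.07 (edgeR adjusted p = 2.3e-06, 2.19e-06 and 5.75e-06), and UQCRC1 of complex III rose in MOLM-13 (0.38 ± 0.07, edgeR adjusted p = 1.24e-05) as well as in HEL (0.30 ± 0.07, edgeR adjusted p = 0.000402). In MOLM-13 the complex I genes NDUFA8 (0.37 ± 0.09, edgeR adjusted p = 0.000999) and NDUFB9 (0.28 ± 0.07, edgeR adjusted p = 0.000604) rose too. Cytosolic ribosomal protein genes fell in both lines: 1 of 79 rose and 60 fell in HEL (median -0.25), and 0 rose and 40 fell in MOLM-13 (-0.15) in the same edgeR test. The share that fell was 75.9% in HEL and 50.6% in MOLM-13, against 14.1% and 14.3% of all genes. Among them, RPL13A fell by 0.57 ± 0.05 in HEL and by 0.37 ± 0.05 in MOLM-13 (edgeR adjusted p = 4.74e-12 and 2.12e-07). RPS3, RPLP1, RPL18 and RPLP0 fell by 0.50, 0.45, 0.34 and 0.27 in HEL and by 0.21, 0.30, 0.37 and 0.33 in MOLM-13, all with an edgeR adjusted p of 0.00254 or lower. In HEL, then, the cytosolic and mitochondrial ribosomal protein lists had medians of opposite sign, and in MOLM-13 both medians were below 0.

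The members are shorter genes than most: their median exon length was 2539 bases against 4463 for all genes tested that had an annotation, and their GC content 47.7% against 48.3%. Across the 76 members, Spearman's rho of the log2 fold change with GC content was 0.03 in HEL and -0.09 in MOLM-13, and with exon length -0.12 and 0.08, as a description over genes that share the same libraries. The members lie on 21 chromosomes, and the exons of 39 overlap those of another gene, 14 on the same strand and 29 on the opposite strand. Of the members named above as called, MRPL17, MRPL24, MRPS18B, MRPS33, MRPL27, MRPL41, MRPS26, MRPL36, MRPS34, MRPL57, MRPL40, MRPS15, MRPL45, MRPS35, MRPL14, MRPL21 and MRPL3 have no such overlap listed.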

How the data were processed

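Gene counts were read from 2 tables the authors deposited, 1 per cell line, with 4 libraries each. Per the labels' protocols, the miRNeasy Micro kit was used for extraction and the NEBNext Ultra II kit for library preparation. The deposited values are raw, whole-number gene counts. The submitters' processing notes name STAR, SAMtools 1.12, DESeq2 and GRCh38; what each was used for, the counter, the annotation and the strand setting is not given in the sources used here. Columns were matched to samples by line, shRNA and replicate number, with 0 columns unused. A hairpin number stands in the names of the HEL columns but not in the titles.

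All 8 libraries entered 1 edgeR 4.0.16 quasi-likelihood model (glmQLFit, glmQLFTest; R 4.3.3) with a mean for each of 4 groups, TMM scaling and filterByExpr (minimum count 10), which left 16499 genes. Contrasts were DDX6 shRNA against control in each line, the difference of these changes between lines, and HEL control against MOLM-13 control. P-values were Benjamini-Hochberg adjusted over all 16499 genes, and a gene was called at an adjusted p under 0.05. The test was checked on simulated data with 200 changed genes. The SE is that of the log2 fold change, and CPM values are TMM-scaled. Lengths, GC content and overlaps come from GENCODE 29, which matched all 76 members.

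Alternatives were RLE and upper-quartile scaling, no filter, DESeq2 1.42.0, each line fitted alone, the replicate number as a block, removal of GC and length trends, and leaving out each library. The members and lists were chosen with earlier results of these data known. Named genes were up to 10 members called in each direction and line, by size of change and without overlap between groups, those called the same way in both lines, every member called for the difference, the 5 highest and 5 lowest per kilobase, and up to 3 called genes per other list and line by smallest adjusted p; members named for their place in the ribosome or their neighbourhood (MRPL12 and the pair MRPS11 and MRPL46), and those named for the gap between control libraries (MRPL39 and MRPL19), were chosen after their values were seen.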

Additional observations from a re-analysis of the deposited data

Results flagged for a closer look

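Each result here is a change that differed between the lines by a test of the difference itself (MOLM-13 change minus HEL change, log2, edgeR adjusted p under 0.05). Among mitoribosomal members the differences were -0.65 for MRPL36, -0.60 for MRPL27, -0.58 for MRPL47, -0.50 for MRPL14, -0.49 for MRPL20, -0.49 for MRPL13, -0.42 for MRPS15, -0.40 for MRPL28, -0.39 for MRPS34, -0.37 for MRPL3 and -0.33 for MRPL21. The calls of MRPL14, MRPL28, MRPS34, MRPL3 and MRPL21 were lost under at least 1 alternative, and MRPL21 kept its call under only 2 of 14. For this difference 14.5% of members were called, against 15.1% of all genes.

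Among mitoribosomal proteins with other symbols, AURKAIP1 differed by -0.69 and CHCHD1 by -0.50. Of the assembly and translation factors, RBFA differed by 0.66, NOA1 by 0.41 and SLIRP by -0.61.

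Of the transcripts of mitochondrial DNA, MT-CYB differed by -0.32, MT-ND4L by 0.46, MT-ND5 by 0.33, MT-RNR2 by 0.24 and MT-CO1 by 0.23. MTERF2, a regulator of mitochondrial gene expression, differed by 0.92. Of the import genes, TIMM17A differed by -0.45, TOMM34 by -0.33 and TOMM20 by 0.42. NDUFB10 differed by -0.44, COX7B by -0.40 and NDUFS5 by -0.36, and the cytosolic ribosomal protein gene RPS3 by 0.29.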

How the results depend on the processing

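The medians of the log2 fold changes over the members kept their sign under all alternatives tried. In HEL the count of members that rose was 21, with 13 by DESeq2 and 9 to 23 when 1 library was left out; the count that fell was 5, with 10 when the line was fitted alone, 9 with GC and length trends removed and 3 to 9 when 1 library was left out. In MOLM-13 the count that rose was 6, with 3 when the line was fitted alone and 3 to 8 when 1 library was left out, and the count that fell was 15, with 9 to 21. For the difference between lines, 0 were higher, with 1 (MRPS35) under RLE scaling, 1 under upper-quartile scaling, 1 with GC and length trends removed and 0 to 1 when 1 library was left out; 11 were lower, with 7 to 18. Replicate numbers did not pair the libraries (correlations of deviations 0.05 in HEL and -0.04 in MOLM-13), and with the replicate block the counts were 20 and 4 in HEL, 6 and 12 in MOLM-13 and 0 and 10 for the difference. Single named members lost a call in 86 of 724 alternative values (23 of 49 calls) and other named genes in 109 of 1182 (31 of 80 calls). Calls held in all settings for 10 of 26 members in HEL, 10 of 21 in MOLM-13 and 6 of 11 for the difference. The cause of these shifts was not tested; where 1 library was left out, fewer samples entered the model and the lone library was assumed to vary like the other groups. With 2 libraries a group, changes near 0.2 log2 units sit close to the threshold.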
